A study of Homo sapiens with 4 samples.

Results

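The circular RNAs (circRNAs) described here come from genes of ubiquitin ligases. A circRNA forms when the end of a downstream exon is joined to the start of an upstream exon by backsplicing, so it has no free ends and is counted from reads that cross the backsplice junction. Circles were chosen by the symbol of their host gene: members of the HECTD, HERC, UBE3, UBE4, UBR, NEDD4, WWP, SMURF, HECW, CUL, RNF, TRIM, MARCHF, FBXO, FBXL, FBXW, MIB, SIAH and KLHL families, and HUWE1, TRIP12, AREL1, MYCBP2, BIRC6, XIAP, CBL, CBLB, MDM2 and SHPRH. FBXW7 and ITCH were left out by the same rule. It took 1483 of the 45182 circles, from 181 of 8230 host genes, and used no measured value. The rule rests on names, so the family prefixes also took 27 circles of 6 pseudogenes.

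The cells were Flp-In T-REx 293, human embryonic kidney cells in which inducible transgenes go to a set site. Control cells and DIS3 KD clone 8 both carried an inducible, Flag-HA tagged DIS3 transgene, and in the KD clone the endogenous DIS3 gene had been disrupted with CRISPR/Cas9. DIS3 is a ribonuclease and one of the enzymes of the RNA exosome, and the comparison asks how circles change when it is depleted. Each group had 2 libraries, described as biological replicates, of rRNA-depleted total RNA from cells without doxycycline. Both groups grew in medium with fetal bovine serum, blasticidin and hygromycin B. The KD group is 1 clone, so clone and depletion cannot be told apart, and p-values measure only the spread between these libraries.

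Ubiquitin is passed from an activating enzyme to a conjugating enzyme and then, with the help of a ligase, to the protein that is to be marked. HECT ligases take the ubiquitin onto themselves first, RING finger ligases hold the charged conjugating enzyme beside the target, and cullins are scaffolds that join a RING protein to exchangeable receptors such as F-box and BTB-Kelch proteins. The chain that results sends many targets to the proteasome, and other chains change a protein's place or partners.

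Levels are in FPBcirc, the backsplice fragments per gigabase of mapped sequence. Mapped sequence came to 19.6 and 20.4 gigabases in the control libraries and to 165 and 47.9 in the KD libraries, so that 1 read was worth 0.0511, 0.0489, 0.00604 and 0.0209 FPB. Ubiquitin ligase circles received 1711 and 1748 reads in the control libraries and 10208 and 3572 in the KD libraries. DIS3 itself had 2 circles, with 0 reads in both controls and 7 and 2 in the KD libraries, and its linear RNA has a value of 11.7 and 15.9 FPB in the KD libraries only, because a linear value exists only where a circle was seen. The depletion could therefore not be checked against control cells. Of 10 genes listed for the embryonic kidney line, 3 had a circle (VIM, CDH2 and PAX2), read in KD libraries only, so the identity of the control cells could not be checked. None of 5 blood and none of 5 hepatocyte genes had one and the fibroblast gene PDGFRA had 1 read.

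The hosts differed widely in how many circles they gave. BIRC6, a giant inhibitor-of-apoptosis protein that both conjugates and ligates ubiquitin, had 110. The HECT ligases HECTD4 and HUWE1 had 64 and 61, and MYCBP2, a giant ligase of neurons that acts on nerve growth, had 46. HERC2, HERC1 and TRIM37 had 38, 37 and 36, and the 8 hosts with most circles held 28.9% of them. The median host had 4 circles against 3 over all hosts, 43 hosts had 10 or more and 33 had a single one. Circles of one host overlapped heavily: 85% shared a backsplice edge with another circle of their host, against 82% over all circles. The median genomic span was 11445 bases, against 9920 over all circles.

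Most ubiquitin ligase circles were rare and seen on one side only. There were 1021 circles in the KD libraries alone, 155 in the controls alone and 307 in both. As shares, 68.8% were seen in KD libraries alone, against 69.6% of all circles, and 398 circles had a single read in all. The libraries differ in depth, which moves with these counts: 296 and 293 ubiquitin ligase circles were seen in the controls and 1076 and 632 in the KD libraries. With every library thinned to the mapped sequence of control replicate 1, the counts were 296 and 287 against 448 and 431. They were thus higher in the KD libraries. Only the mapped sequence was matched in this, not the number of backsplice reads. Over all circles the thinned counts were 8357 and 8481 against 13698 and 13804.

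The summed signal went the other way. Ubiquitin ligase circles summed to 87.5 and 85.5 FPB in the controls and to 61.7 and 74.6 FPB in the KD libraries. Both KD sums lay below both control sums, with a ratio of 0.787 between the means and an exact two-sided permutation p of 0.333, the smallest that 2 libraries against 2 can give. As a share of all backsplice signal they made up 3.5% and 3.17% in the controls and 2.9% and 2.94% in the KD libraries.

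Enzyme classes were set by gene symbol, and the hosts left over were grouped as other, which is therefore not a single enzyme type. That class holds MIB1, BIRC6, MYCBP2, MDM2, CBL, XIAP and pseudogenes of HERC2 and RNF216, among others, and had the most control signal. Its 265 circles summed to 21.6 and 20.3 FPB in the controls against 12.1 and 14.6 in the KD libraries, and the groups did not overlap. Circles of F-box receptors, led in number by FBXL5, went from 14 and 15.3 to 10.4 and 11.8 FPB, also without overlap. Of these sums FBXW4 gave 7.16 and 8.61 against 5.25 and 5.41 FPB. RING finger proteins, led in number by RNF213, gave 17.9 and 15.5 against 11.4 and 14.1 FPB, of which RNF213 itself gave 0.511 and 0.0978 against 0.49 and 0.605. Here and below, the host that leads a class is the one with most circles and need not carry most of its signal. RING-between-RING ligases, led by RNF216, gave 1.53 and 1.57 against 1.22 and 0.96 FPB.

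Other classes overlapped between the groups. The 433 HECT circles, led by HECTD4, gave 19.1 and 14.8 against 13.5 and 16.8 FPB. BTB-Kelch receptors, led by KLHL3, gave 5.57 and 7.34 against 5.33 and 6.37, and tripartite motif proteins, led by TRIM37, 4.7 and 5.43 against 4.24 and 6.12. UBR box proteins, led by UBR3, gave 1.48 and 2.84 against 2 and 2.13 FPB, and cullins, led by CUL5, 1.23 and 2.25 against 1.03 and 1.38. The U-box ligases, led by UBE4B, stood alone in being higher in both KD libraries, at 0.417 and 0.438 FPB against 0.256 and 0.245. That class rests on 5 reads in each control library.

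**Figure D1:**
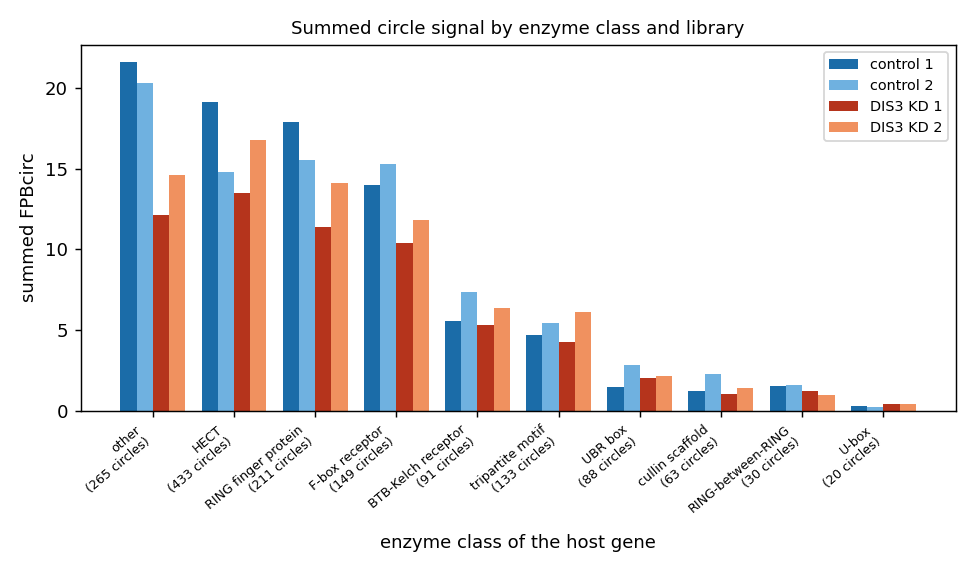
Summed FPBcirc (vertical axis, backsplice fragments per mapped gigabase) of the circles of each enzyme class, 1 bar per library, with no error bars because each bar is a single library. The group of other ligases stands at 21.6 and 20.3 in the controls and at 12.1 and 14.6 in the DIS3 KD libraries.

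The test of single circles covered those with a mean of at least 0.174 FPB over the 4 libraries. It took in 83 circles of ubiquitin ligases from 53 hosts, 5.6% of all of them against 5.37% of all circles, and 1400 were too rare to be tested. The filter uses the overall mean, so a circle that is low in one group passes only if it is high in the other. The last circle inside it was one of FBXL13, at 0.178 FPB, and the first outside stood at 0.173 FPB.

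Among the 83 tested circles the smallest p-values belonged to circles of FBXO30, CUL2, MIB1, KLHL8 and HUWE1, all with lower levels in DIS3 KD, but none of the 83 passed the threshold. In limma on log2(FPBcirc + 0.0349), with Benjamini-Hochberg adjustment over 2427 circles, 0 were called higher and 0 lower, where all tested circles gave 0.0824% higher and 0.453% lower. Before adjustment, 1 circle was higher and 14 were lower at p under 0.05, against 5.11% and 14.0% of all tested circles. The median log2 fold change of the 83 was -0.45, against -0.33 over all tested circles, and 58 of the 83 had lower values in DIS3 KD. Groups did not overlap for 6 circles that were higher and 35 that were lower, where all tested circles gave 16.2% higher and 38.4% lower.

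The scaling moved this picture. With each library centred on its median circle, the median over all tested circles went from -0.33 to 0.17 and that of the ubiquitin ligase circles from -0.45 to 0.04, and 3 of the 83 were higher and 4 lower before adjustment, against 268 of all 2427 and 7.62% of all tested circles. The edgeR test on recovered reads called 0 of the 83, against 0.0412% higher and 0% lower over all tested circles. Before adjustment it had 4 higher and 2 lower, against 11.9% and 6.43%. DESeq2 called 2 of the 83 higher and 0 lower, against 7.13% and 2.68%. Leaving out control replicate 1 gave 5 called higher and 11 lower, against 13.2% and 18.1% of all tested circles. Leaving out control replicate 2 gave 10 and 11, against 14.4% and 13.9%. In both, the lone control is taken to vary as the KD libraries do. Without KD replicate 1 or without KD replicate 2 there were 0 and 0.

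**Figure D2:**
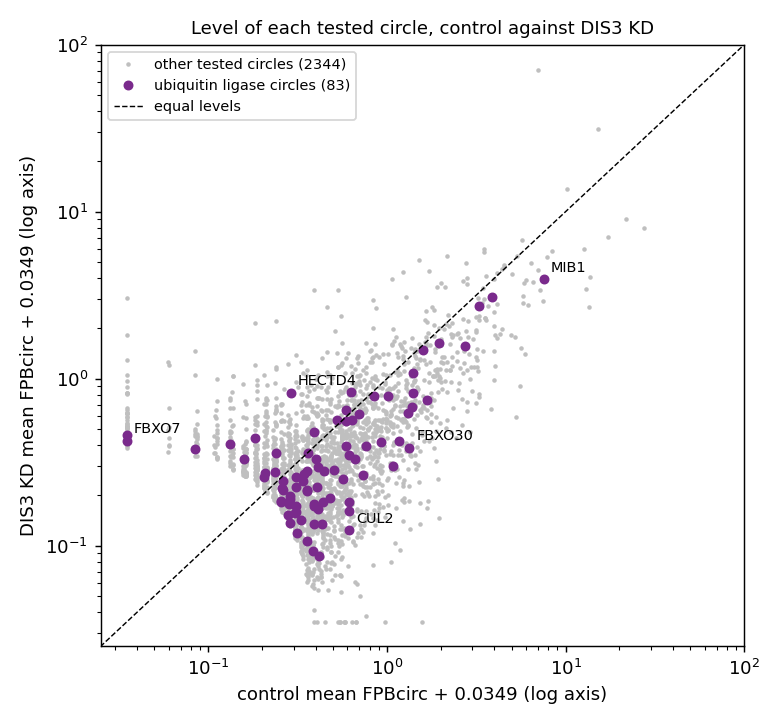
Mean FPBcirc plus the pseudocount of 0.0349 in the 2 control libraries (horizontal, log axis) and in the 2 DIS3 KD libraries (vertical, log axis), 1 point per tested circle, with the 83 ubiquitin ligase circles in purple. Of these, 58 had lower values in DIS3 KD on the tested scale, and the FBXO7 circle stands at the left edge because both controls had 0 reads.

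The most abundant ubiquitin ligase circle came from MIB1, a ligase that drives uptake of Notch ligands in the signal-sending cell. This circle (hg38 chr18:21765772-21779685, within the gene) read 6.95 and 8.02 FPB in the controls and 3.55 and 4.3 FPB in the KD libraries. Both KD values lay below both control values, with a log2 fold change of -0.93 (SE 0.27, limma adjusted p = 0.136). It stayed negative at -0.44 after centring and at -0.27 in edgeR. MIB1 had 32 circles in all, 6 of them tested, and 4 of the 6 began at the same upstream base. The second in rank of the 6 (chr18:21765772-21819646) read 0.511 and 0.196 FPB against 0.393 and 0.501, so that the groups overlapped. The summed MIB1 signal was 10.4 and 9.78 FPB in the controls against 5.29 and 6.34.

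FBXW4, an F-box receptor with WD repeats, gave the second and the fourth most abundant circles. They share their end, and the longer (chr10:101667886-101676436) read 3.78 and 3.86 FPB against 3.1 and 2.98. Its log2 fold change was -0.33 (SE 0.27, limma adjusted p = 0.512), the same as the median of all tested circles, and turned to 0.17 after centring and 0.36 in edgeR and DESeq2. The shorter (chr10:101672915-101676436) read 2.35 and 3.08 FPB against 1.37 and 1.69, a log2 fold change of -0.81 (SE 0.33, limma adjusted p = 0.244). Neither pair of groups overlapped.

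A circle of MARCHF6, a ligase in the membrane of the endoplasmic reticulum, was among the leading 3 (chr5:10415488-10417404). It read 2.91 and 3.57 FPB in the controls and 2.54 and 2.82 in the KD libraries, which did not overlap, and its log2 fold change of -0.27 was smaller than the all-circle median. HUWE1, a HECT ligase of many nuclear and cytoplasmic targets, and RNF138, a RING ligase that acts at DNA breaks, followed with overlapping groups. The HUWE1 circle (chrX:53645311-53654131) read 2.66 and 1.17 against 1.16 and 2.02 FPB. A second HUWE1 circle (chrX:53600118-53604834) was among the lower ones, at 1.43 and 0.832 against 0.405 and 0.376 FPB without overlap (log2 fold change -1.41, SE 0.44, limma adjusted p = 0.159). The RNF138 circle (chr18:32111754-32113860) read 1.94 and 1.17 against 0.894 and 2.02 FPB. For the MARCHF6, RNF138, RNF220 and KLHL2 circles and the first HUWE1 circle the sign of the log2 fold change turned positive after centring.

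KLHL8, a BTB-Kelch receptor for cullin complexes, gave a small circle of 367 bases (chr4:87195324-87195690). It read 1.64 and 1.66 FPB in the controls and 0.701 and 0.71 FPB in the KD libraries. The replicates of each group nearly coincided, and the log2 fold change was -1.19 (SE 0.35, limma adjusted p = 0.14). RNF13, a membrane-anchored RING ligase of endosomes and lysosomes, gave 1.38 and 1.32 FPB against 0.556 and 0.73 (chr3:149846011-149921227; log2 fold change -1.04, limma adjusted p = 0.193). A BIRC6 circle (chr2:32377588-32406557) read 1.23 and 1.32 against 0.363 and 0.814 FPB, also without overlap. Of the last members of the leading 12, TRIM33, a regulator of SMAD4, read 0.972 and 1.76 against 0.453 and 1.13 FPB and RNF220 1.94 and 0.783 against 0.828 and 1.25, both with overlap, and KLHL2 1.13 and 0.832 against 0.695 and 0.814 without.

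**Figure D3:**
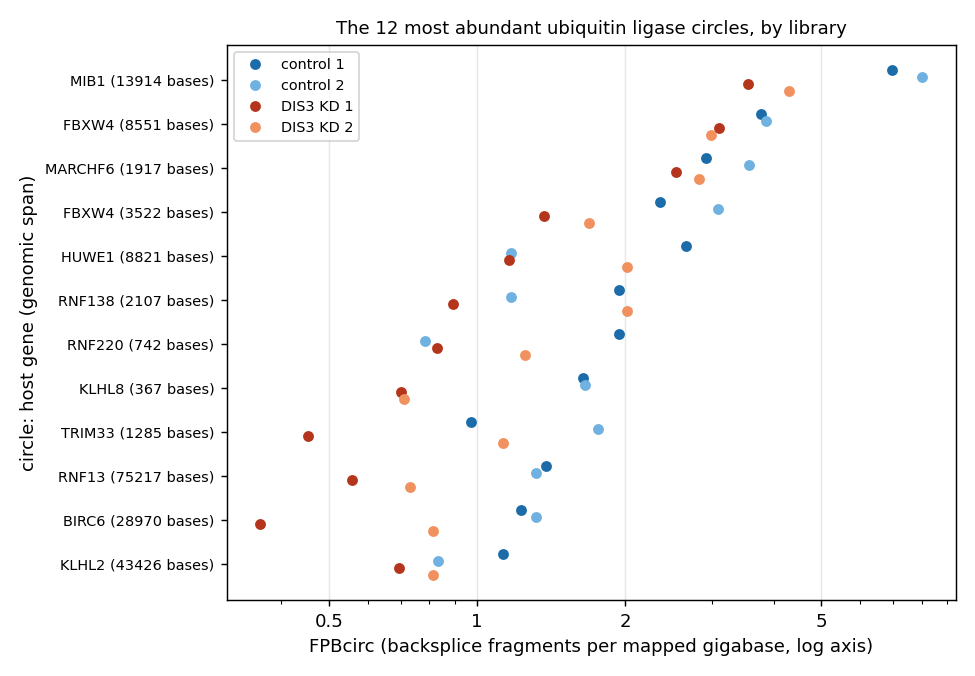
FPBcirc (log axis) of the 12 most abundant ubiquitin ligase circles in each of the 4 libraries, 1 row per circle with the genomic span of the circle in brackets. Both DIS3 KD points of MIB1, at 3.55 and 4.3, lie below both control points, at 6.95 and 8.02, while the points of HUWE1, RNF138, RNF220 and TRIM33 overlap.

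Lower circles with larger differences were less abundant. The CUL2 circle (chr10:35060874-35071339), from the scaffold that carries the VHL tumour suppressor, read 0.614 and 0.538 FPB against 0.0725 and 0.104. Its log2 fold change of -2.32 (SE 0.66, limma adjusted p = 0.136) was the largest of the 14 lower ones, and it rests on 12, 11, 12 and 5 reads. FBXO30, an F-box receptor with 1 tested circle (chr6:145804372-145806421), read 1.33 and 1.27 FPB against 0.224 and 0.48 (log2 fold change -1.87, SE 0.47, limma adjusted p = 0.107). That was the smallest adjusted p of the 83.

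Values for RNF10, HERC4, FBXL17 and FBXL5 lay between -1.91 and -1.67 on the log2 scale. RNF10 (chr12:120562945-120563943) read 0.767 and 0.391 FPB against 0.169 and 0.0835. HERC4 (chr10:67954595-68014186), a HECT ligase with regulator-of-chromosome-condensation repeats, read 0.563 and 0.587 against 0.0846 and 0.209. FBXL17 (chr5:108348399-108367953), which removes wrongly paired BTB proteins, read 0.614 and 1.47 against 0.242 and 0.292 FPB. FBXL5 (chr4:15625252-15644708), an F-box receptor that senses iron, read 0.358 and 0.44 against 0.0967 and 0.104. All 14 lower circles, from 13 hosts, had non-overlapping groups and stayed negative after centring and in edgeR. Their adjusted p lay between 0.107 and 0.26 in the limma test. They were picked by p-value from these same values, so the kept sign and the lack of overlap are not separate support.

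A single circle was higher at an unadjusted p under 0.05. This HECTD4 circle (chr12:112319225-112319742) of 518 bases read 0.46 and 0.0489 FPB in the controls, where the lower value is 1 read, and 0.665 and 0.918 FPB in the KD libraries. Its log2 fold change was 2.00 (SE 0.85, limma adjusted p = 0.261). HECTD4 as a whole gave 1.94 and 1.13 FPB in the controls and 2.45 and 3.28 FPB in the KD libraries, without overlap. Its other tested circle (chr12:112239052-112240027) went the other way, also without overlap. That circle read 0.307 and 0.44 FPB in the controls against 0.151 and 0.23 (log2 fold change -0.86, SE 0.64, limma adjusted p = 0.462).

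Some circles were read only in DIS3 KD. There were 33 with 20 or more reads over both KD libraries and 0 in both controls, from 26 hosts, and 0 with the reverse pattern. They were 2.23% of ubiquitin ligase circles, against 2.1% (948) over all circles, and the KD libraries were the deeper ones. Pooled over the KD libraries 20 reads stood for 0.0937 FPB. In the controls 1 read alone was worth 0.0511 and 0.0489 FPB, so the reverse pattern needed a much higher level and the 2 counts cannot be compared. Pooled over the controls, 3 reads set a floor of 0.075 FPB. A circle of FBXO7, an F-box protein of mitochondrial quality control (chr22:32478981-32485209), had 36 and 27 reads, 0.218 and 0.564 FPB, and was at least 3.94-fold higher than that floor. DESeq2 called this circle (adjusted p = 0.0123), and in limma its adjusted p was 0.299. It was picked here for its 0 control reads and passed the abundance filter only through its KD values. Neither p-value is therefore separate support for a difference.

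Others came from TRIM35 (33 and 20 reads, at least 3.31-fold higher), the proteasome-bound HECT ligase UBE3C (42 and 7, at least 3.06-fold), KLHL21 (34 and 13, at least 2.94-fold) and FBXO31 (46 and 0, at least 2.87-fold). FBXO31 rests on KD replicate 1 alone, as does the KLHL22 circle with 20 and 0 reads. The lowest bound of the 33 was 1.25. Among circles read only in controls, the highest were one of RNF41, with 0 and 11 reads, and one of TRIM37, with 9 and 2.

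The linear RNA of the same hosts was compared next. FPBlinear was derived from FPBcirc and the deposited CIRCscore, and a host enters only if it had a circle in all 4 libraries, which held for 81 of the 181. The linear RNA of 4 of 5 cullins fell, that of RNF121 and FBXW4 rose, and 24 hosts in all passed the threshold. In limma on log2(FPBlinear + 1.16), adjusted over 2547 hosts, 9 of the 81 rose and 15 fell, where 11.3% of all hosts rose and 24.3% fell. The median log2 fold change of the 81 was -0.10, against -0.17 over all hosts. With each library centred on its median host the count was 18 higher and 17 lower, against 21.7% and 22.9% of all hosts. The all-host median was then -0.01, and all 24 calls held.

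Single libraries moved these calls. With control replicate 1 left out, 1 rose and 4 fell, against 2.98% and 9.58% of all hosts. With control replicate 2 left out, 4 rose and 3 fell, against 4.83% and 7.03%. With KD replicate 1 left out, 11 rose and 7 fell, against 10.8% and 14.5%, and with KD replicate 2 left out, 8 rose and 27 fell, against 11.9% and 36.0%. RNF121, HERC5 and FBXO11 were the 3 hosts that stayed called without any one library.

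Of 5 cullins measured, 4 fell. CUL3, the scaffold for BTB receptors, read 22.3 and 21.1 FPB in the controls and 8.46 and 12.1 FPB in the KD libraries (log2 fold change -1.01, SE 0.24, limma adjusted p = 0.000332). CUL2 read 12.4 and 12.2 FPB against 4.89 and 7.53 (log2 fold change -0.89, SE 0.23, limma adjusted p = 0.000837). In both, the controls nearly coincided and the KD values lay well below them.

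CUL4B, which pairs with DDB1, read 15.2 and 16.6 against 7.22 and 11 FPB (limma adjusted p = 0.00661). CUL5, which works through elongins and SOCS-box receptors, read 5.65 and 5.19 against 2.42 and 3.84 FPB (limma adjusted p = 0.0101). CUL1, the scaffold of F-box receptors, read 12.6 and 14.8 FPB against 13.1 and 16.3 with overlap, a log2 fold change of 0.09 (SE 0.24, limma adjusted p = 0.8). Calls for CUL2, CUL4B and CUL5 were lost without either control, CUL3 was lost without control replicate 1 (adjusted p = 0.0604), and CUL4B and CUL5 were lost without KD replicate 1.

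The start regions of CUL3, CUL4B and CUL5 are shown because the linear RNA of these genes fell together. Each is the 250 bases before the most upstream start listed for the gene in the RefSeq promoter table (GRCh38.p14), 5′ to 3′ on the strand of the gene: CUL3 at chr2:224585364-224585613 (minus strand), CUL4B at chrX:120575533-120575782 (minus) and CUL5 at chr11:108008648-108008897 (plus). CUL2 is not shown, since its listed starts lie within the span of the gene. Capitals mark matches to the GC box letters (GGGCGG or CCGCCC) and to the CCAAT letters (CCAAT or ATTGG).

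CUL3: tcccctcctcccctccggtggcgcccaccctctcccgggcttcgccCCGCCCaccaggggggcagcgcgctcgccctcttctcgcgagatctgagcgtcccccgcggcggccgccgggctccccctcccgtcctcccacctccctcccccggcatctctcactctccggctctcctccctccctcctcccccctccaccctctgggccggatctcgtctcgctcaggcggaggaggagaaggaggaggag

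CUL4B: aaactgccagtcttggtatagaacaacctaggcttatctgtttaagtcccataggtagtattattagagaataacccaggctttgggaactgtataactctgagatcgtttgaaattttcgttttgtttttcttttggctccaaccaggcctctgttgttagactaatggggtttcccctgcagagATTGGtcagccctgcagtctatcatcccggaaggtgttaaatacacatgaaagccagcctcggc

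CUL5: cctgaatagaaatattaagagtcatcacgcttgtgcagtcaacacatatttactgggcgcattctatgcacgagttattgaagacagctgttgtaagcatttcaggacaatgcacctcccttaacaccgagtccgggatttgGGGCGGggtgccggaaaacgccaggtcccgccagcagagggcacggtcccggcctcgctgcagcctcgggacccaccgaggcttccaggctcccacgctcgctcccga

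CUL3 and CUL5 each held 1 GC box match and CUL4B held 1 CCAAT match. Over 27305 promoters of the same length, 42.2% held the GC box letters and 33% the CCAAT letters on either strand. Among ubiquitin ligase hosts with a promoter in the table, the GC box was in 11 of 14 that fell, 7 of 8 that rose and 35 of 49 of the others.

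Other hosts that fell spanned several roles. HERC5, the ligase that attaches the ubiquitin-like ISG15, read 9 and 9.4 FPB against 3.27 and 4.41 (log2 fold change -1.06, SE 0.22, limma adjusted p = 3.6e-05). FBXO11, an F-box receptor for the transcription factor BCL6, read 10.2 and 10.5 against 3.54 and 5.59 FPB (log2 fold change -1.03, SE 0.23, limma adjusted p = 6.06e-05). FBXO30 read 6.88 and 9.1 FPB against 2.77 and 4.48, and UBR2, which binds destabilising N-terminal residues, 7.71 and 9 against 3.31 and 4.47. MARCHF7, RNF168, UBE3D, UBR3, TRIP12, XIAP and FBXO38 fell as well, by 0.51 to 0.90 on the log2 scale. Among these RNF168 and TRIP12 belong to DNA break signalling, as the ligase of histone H2A and the ligase that restrains it, and XIAP is a caspase inhibitor.

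Hosts that rose were led by RNF121, a membrane-bound ligase of the secretory pathway. It read 2.16 and 2.95 FPB in the controls and 8.13 and 7.57 in the KD libraries, a ratio of 3.08 between the means (log2 fold change 1.29, SE 0.21, limma adjusted p = 1.12e-07). FBXW4 read 8.66 and 9.36 FPB against 18.5 and 18, a ratio of 2.02. Both replicates of DIS3 KD stood clear of the controls in both genes.

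RNFT2 (4.44 and 5.19 against 11.4 and 8.95 FPB), TRIM35 (4.23 and 4.96 against 10.5 and 8.75) and FBXO17 (5.68 and 7.53 against 13.3 and 12.5) rose by similar amounts. RNF213, the giant ATPase ligase linked to moyamoya disease, read 8.06 and 8.54 FPB against 16.1 and 14.1. HECTD4, KLHL22 and RNF138 rose by log2 fold changes of 0.64, 0.58 and 0.59. The groups of the 24 called hosts did not overlap, which also held for 70.7% of all hosts.

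**Figure D4:**
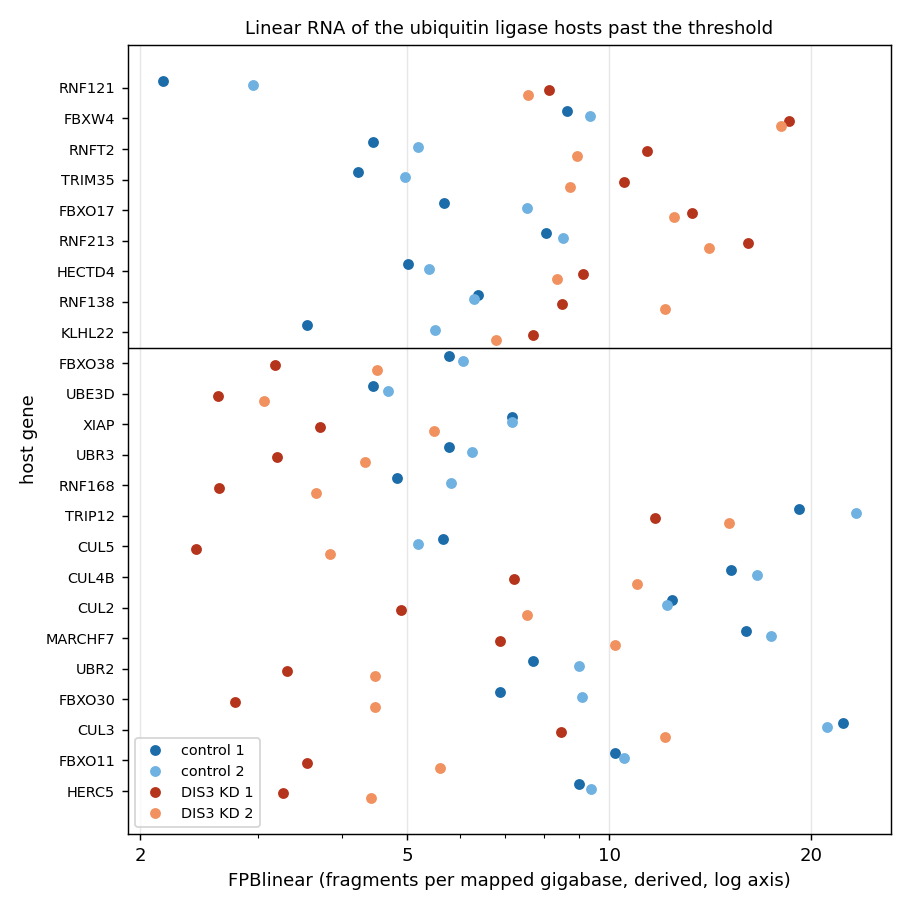
FPBlinear (log axis) of the 24 ubiquitin ligase hosts past the threshold in each library, with the 9 that rose above the horizontal line and the 15 that fell below it. RNF121 goes from 2.16 and 2.95 to 8.13 and 7.57, and CUL3 from 22.3 and 21.1 to 8.46 and 12.1.

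Circle and linear values of one host are given side by side, since both comparisons use the same libraries. FBXW4 circles summed to 7.16 and 8.61 FPB in the controls and 5.25 and 5.41 in the KD libraries, while its linear RNA rose. FBXO30 circles went from 1.33 and 1.27 to 0.224 and 0.48 FPB and CUL2 circles from 0.665 and 0.587 to 0.169 and 0.271, with linear RNA that fell. CUL5 circles were at 0.0511 and 0.294 FPB against 0.248 and 0.501, with overlap, beside linear RNA that fell. HECTD4 had a higher circle sum and higher linear RNA, and for RNFT2, TRIM35, KLHL22 and RNF138 the linear RNA rose while the circle sums overlapped.

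**Figure D5:**
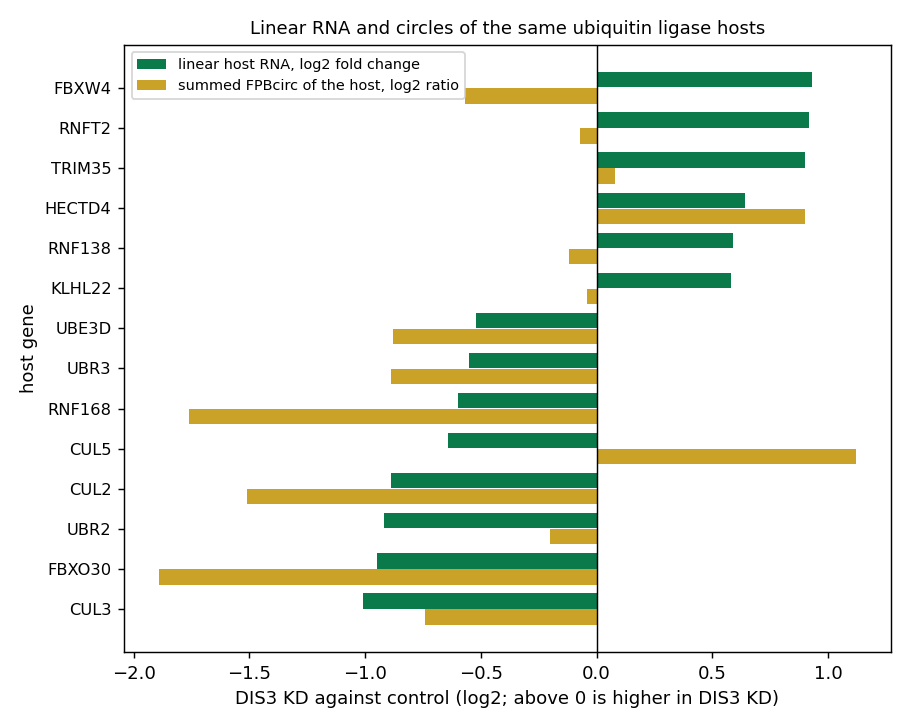
Change in DIS3 KD against control (log2 axis, bars from 0) of the linear RNA and of the summed circles for the 14 called hosts that also had a tested circle. FBXW4 has a linear change of 0.93 and a circle ratio of -0.57, and HECTD4 has 0.64 and 0.90. The linear bars include the pseudocount of 1.16 and the circle bars have none, so their lengths cannot be compared between the measures.

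CIRCscore, the deposited ratio of circular to linear signal, was tested for the 66 ubiquitin ligase circles that passed the abundance filter and had a value in all 4 libraries. The lowest p-values belonged to circles of FBXL17, FBXW4 and RNF13, all lower in DIS3 KD, and again none passed. In limma on log2(CIRCscore + 0.00448), adjusted over 1823 circles, 0 were higher and 0 lower, where all circles gave 0% and 0.110%. Before adjustment, 1 was higher and 15 were lower at p under 0.05, against 2.96% and 17.9% of all circles. The median log2 fold change was -0.57, against -0.42 over all circles, and after centring it was -0.09, where 2 circles were higher and 5 lower before adjustment, against 9.11% and 6.97% of all circles. Dropping control replicate 1 called 1 circle higher and 6 lower, against 2.47% of all circles and 218 of all 1823. Dropping control replicate 2 called 3 and 12, against 3.13% and 12.5%. Without KD replicate 1 the median log2 fold change of the ubiquitin ligase circles was -0.49, and without KD replicate 2 it was -0.76.

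The FBXL17 circle had a CIRCscore of 0.391 and 0.596 in the controls and 0.126 and 0.121 in the KD libraries (log2 fold change -1.93, SE 0.40, limma adjusted p = 0.142). The shorter FBXW4 circle went from 0.272 and 0.33 to 0.0748 and 0.0945, a log2 fold change of -1.78 (SE 0.40, limma adjusted p = 0.142). The longer one went from 0.437 and 0.414 to 0.168 and 0.166, and another FBXW4 circle (chr10:101624745-101676436) from 0.0778 and 0.121 to 0.0205 and 0.0226. The groups of these 3 FBXW4 circles did not overlap, while those of the remaining tested one (chr10:101672915-101673673) did, at 0.0424 and 0.0115 against 0.012 and 0.0122. Lack of overlap in CIRCscore was common, at 54.3% of all 1823 circles, with 212 higher and 777 lower. The RNF13 circle went from 0.648 and 0.444 to 0.188 and 0.15 (log2 fold change -1.65, limma adjusted p = 0.144).

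Higher CIRCscores were led by SHPRH, a ligase that extends ubiquitin chains on PCNA. Its circle (chr6:145888020-145894977) went from 0.0195 and 0.0258 to 0.0736 and 0.0714, without overlap (log2 fold change 1.52, SE 0.44, limma adjusted p = 0.167). The circles next in line came from CUL5, UBR2 and UBE4B, with log2 fold changes of 1.29, 1.39 and 0.75. Groups overlapped for CUL5 and UBR2, whose circles had 1 and 6 and 1 and 14 reads in the controls. Their linear RNA, the denominator, had fallen, and the FPBcirc log2 fold changes of these circles were 0.55 and 0.41. What set the higher ratios was not tested.

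Genes around the ligases were counted from lists, beside the same shares of all tested circles as above (before adjustment in limma 5.11% higher and 14.0% lower, and in DESeq2 7.13% and 2.68% called). For conjugating and activating enzymes, 0 of 20 tested circles passed in limma (1 higher and 4 lower before adjustment), edgeR called 0 and DESeq2 4 higher and 1 lower. The UBE2Q2 circle (chr15:75859878-75873568), from a conjugating enzyme, read 1.43 and 2.15 FPB against 0.278 and 0.417 (log2 fold change -2.25, SE 0.43, limma adjusted p = 0.0652). The circles of UBA2, a subunit of the SUMO-activating enzyme, differed in sign at -1.37 and 1.38 (limma adjusted p = 0.215 and 0.221). For cullin partners 0 of 15 passed in limma (1 higher and 3 lower unadjusted), edgeR called 0 and DESeq2 1 higher and 1 lower. Among them a circle of DCUN1D4, a cofactor of cullin neddylation (chr4:51863437-51891851), read 3.27 and 2.98 FPB against 0.502 and 0.856 (log2 fold change -2.19, limma adjusted p = 0.0616), a second DCUN1D4 circle was at -3.83 and one of AMBRA1 at 2.96.

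For other ubiquitin ligases 0 of 38 circles passed in limma, with 0 higher and 8 lower unadjusted, led by RANBP9, NFX1 and RAD18 at -1.34, -1.76 and -1.67; edgeR called 0 and DESeq2 1 higher. For proteasome subunits and shuttles 0 of 16 passed, 0 were under an unadjusted p of 0.05, and edgeR and DESeq2 called 0; the smallest p-values were those of PSMD9, UBQLN1 and NPLOC4. Fits without control replicate 1 or control replicate 2 rest on 1 control library, so their calls in these lists are not set out here. The 3 tested ITCH circles, which are among these 38 other ligase circles, were lower, with a median of -1.35 on the log2 scale. Their groups did not overlap, which held in the lower direction for 38.4% of all tested circles. The tested FBXW7 circle was at -0.43, and its groups overlapped. In limma 0 of these 4 passed and 0 were under an unadjusted p of 0.05.

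Linear RNA calls of the same lists are read against all hosts, of which 11.3% rose and 24.3% fell with all libraries and no centring. A fit without 1 library has its own shares, given above. Cullin partners had 3 that rose and 6 that fell of 20, led by CAND2, a cullin exchange factor (2.39 and 3.55 against 10.1 and 7.29 FPB; log2 fold change 1.25, limma adjusted p = 4.35e-07), DCAF6, a receptor of CUL4 complexes (-1.01), and ZER1, a CUL2 receptor (0.88). Other ligases had 4 and 3 of 32, led by MID1, a microtubule-bound ligase, at 3.99 and 3.88 FPB against 0.279 and 0.325, with RANBP9 at -1.10 and UNK at 0.98. Proteasome genes had 2 and 4 of 12, led by PSMD14, the deubiquitinase of the lid, at 59.5 and 59.7 FPB against 22 and 28.4, with PSMD1 at -0.85 and the shuttle UBQLN1 at 0.82. Conjugating and activating enzymes had 0 and 2 of 8, UBE2Q2 at -0.75 and UBE2G1 at -0.77. In the order cullin partners, other ligases, proteasome genes and conjugating enzymes, dropping control replicate 1 left 1, 0, 0 and 0 that rose and 1, 2, 2 and 0 that fell. Dropping control replicate 2 left 2, 1, 0 and 0 that rose and 0, 1, 1 and 0 that fell. Dropping KD replicate 1 gave 3, 3, 2 and 0 against 1, 2, 2 and 0, and dropping KD replicate 2 gave 4, 7, 2 and 0 against 7, 9, 4 and 3. Centring gave 7, 9, 3 and 1 that rose against 6, 4, 3 and 2 that fell, where 21.7% of all hosts rose and 22.9% fell.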

How the data were processed

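Ribosome-depleted total RNA of 2 control and 2 DIS3 KD libraries was sequenced. The submitters' processing notes name bcl2fastq 2.20, Bowtie2 2.3.5 and the build hg38. The tool that called circles is not named there. FPBcirc, as deposited, is a signal scaled to mapped gigabases, per the file headers, and the deposited CIRCscore is a ratio of circular to linear signal, with a deposited fold (ratio) of group means. Whole reads were recovered from the steps of the FPBcirc values, where 100% of 69413 nonzero values were whole within 0.001. FPBlinear was (FPBcirc + 0.01)/CIRCscore - 0.01, and gave 1 value per host in 99.9% of hosts. Circles were tested with limma 3.58.1 (R 4.3.3; trend and robust moderation) on log2 values, adjusted over all circles or hosts at 0.05. Changes refer to log2(value + pseudocount), which understates those of low values. Pseudocounts were the median value of 1 read for FPBcirc and percentile 5 for the other measures. Alternatives were edgeR 4.0.16 and DESeq2 1.42.0 on recovered reads, centring, other filters and pseudocounts, and each library left out. Coordinates are hg38, first base counted from 1, and 1473 of the 1483 circles lay within their RefSeq gene (9 of the other 10 in HERC2 pseudogenes). Named circles were the 12 most abundant, the largest differences at an unadjusted p under 0.05, the smallest p-values of CIRCscore, those read in 1 group with 20 or more reads, and hosts past the threshold. The members and lists were chosen with earlier results of these data known. Replicate numbers are not said to pair the libraries, and over 2427 circles the deviations of the replicate 1 libraries correlated at 0.00289. Floors cover counting error only. Some results that touch withheld items are not reported here.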

Additional observations from a re-analysis of the deposited data

How the results depend on the processing

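For FPBcirc, the median log2 fold change of the ubiquitin ligase circles ran from -0.66 to -0.24 with 1 library left out. DESeq2 called 2 of them higher and 0 lower, against 7.13% and 2.68% of all tested circles. In limma the replicate block called 2 lower (MIB1, adjusted p = 0.0142, and FBXO30, adjusted p = 0.047). A filter at 10 times the pseudocount called 4 lower of 34. How many of all circles passed under the block or that filter was not counted, so these calls cannot be set apart from circles in general. The replicate numbers share no stated source, so the block is an alternative only. The median log2 fold change of -0.45 became 0.04 after centring, 0.21 with no filter, -0.81 with the higher filter, -0.04 in edgeR and -0.05 in DESeq2. CIRCscore calls without 1 library ran from 0 to 3 higher and 0 to 12 lower, and the median after centring was -0.09. Linear calls without 1 library ran from 1 to 11 higher and 3 to 27 lower, centring gave 18 higher, and the linear median of -0.10 became 0.05 after centring and ran from -0.22 to 0.05 without 1 library. The summed ratio of 0.787 was 0.875 as a share of signal and 0.66 over tested circles. Signs turned under centring, edgeR and DESeq2 for the long FBXW4 circle (0.17, 0.36, 0.36), MARCHF6 (0.23, 0.40, 0.40), HUWE1 (0.29, 0.34, 0.32), RNF138 (0.33, 0.48, 0.47), RNF220 (0.22, 0.23, 0.22) and KLHL2 (0.14, 0.29, 0.28). Without 1 library, log2 fold changes ran from -0.78 to 0.38 for HUWE1, -0.73 to 0.41 for RNF138 and -0.91 to 0.37 for RNF220. The cause was not tested. Of 240 alternative values for the 24 linear calls, 190 stayed called and 50 did not, with no change of sign. Of 264 for named circles in FPBcirc, 24 changed sign and 14 passed the threshold. Control libraries, with 1 read worth about 0.05 FPB, limit what can be seen in rare circles.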

Other observations

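A pair of TRIM2 circles differ by 3 bases at one edge and share the other (chr4:153270335-153276130 and chr4:153270338-153276130). The first had 0 and 2 reads in the controls and 55 and 17 in DIS3 KD, and the second 0 and 0 against 22 and 10. A second TRIM2 pair with the same 3-base offset had 23 and 3 reads in all. Among ubiquitin ligase hosts there were 6 such pairs within 12 bases, in 4 hosts, TRIM2, BIRC6 and RNF13 among them.

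The FBXL5 linear value was 4.91 and 5.66 FPB in the controls, 0.0121 in KD replicate 1 and 5.88 in KD replicate 2, and it was the one host of 81 whose KD libraries differed more than 5-fold, against 0.55% of all 2547 hosts. Its CIRCscore follows, at 4.83 in KD replicate 1 and 0.0194 in KD replicate 2, while the circle itself read 0.0967 and 0.104 FPB. The linear value of FBXL13 was 0.0475 FPB in control replicate 1 and listed at 0 in the other libraries.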
